A study of Mus musculus with 3 samples.

Results

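The H3K36me3 peaks that lie in the 3' untranslated regions (3' UTRs) of protein-coding genes were described in mouse regulatory T cells (Treg cells) of spleen and large intestine (LI). H3K36me3 is histone H3 trimethylated at lysine 36. A peak was taken when it was under 10000 bp long, its midpoint lay in UTR sequence past the coding region of a GENCODE M21 coding transcript, and this midpoint was more than 1 kb from any transcript start. Of the 120910 peaks of the merged set, 7098 had their midpoint in a 3' UTR. The length limit removed 17 of them and the distance from a start 511 more, which left 6570 peaks (5.43% of the set) in 4151 genes. The rule used peak coordinates and annotation and no signal value. The peaks and their lengths themselves came from calling on the signal of these libraries, and the rule was set with earlier results of these data known. Treg cells (CD3+CD4+Foxp3-YFP+) had been sorted from C57BL/6 mice of genotype Foxp3-YFP, described in the study's methods as Foxp3Cre-YFP, at steady state. Cells of 7 male and 7 female mice were pooled, and 1 library per tissue was immunoprecipitated with an antibody of Active Motif. Each tissue thus had 1 library, no difference below has a replicate check, and no test between tissues was possible. Chromatin of splenic Treg cells served as input for peak calling in both tissues, and its values were not analysed here. The methods give a general age range for mice used in vivo, and no age for these libraries in particular.

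The 3' UTR is the part of an mRNA between the stop codon and the poly(A) tail. It carries binding sites of microRNAs and of proteins that govern how long the message lasts and how well it is translated, and several T cell messages are controlled this way. H3K36me3 is laid down by Setd2, which travels with elongating RNA polymerase II, so the mark covers the bodies of transcribed genes and as a rule is denser toward their ends than at their starts. The poly(A) signal, most often AATAAA, directs cleavage of the transcript, and AU-rich elements with the core TTATTTATT are bound by decay factors of the Zfp36 family.

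Short stretches of mm10 sequence show what the peaks lay over. Of the 1119 peaks that reached past an annotated transcript end, 660 (59.0%) held AATAAA on the gene's strand with its last base 5 to 40 bases before that end. Sites from 3 of the peaks with the widest tissue difference are shown as examples, with AATAAA in capitals, each written 5′ to 3′ on the gene's strand.
Ccr2 (chr9:124109477-124109506, plus strand): gttatttgttaAATAAAatgctgatcaata
S1pr1 (chr3:115710439-115710468, minus strand): acttttaaacattAATAAActgattttttt
Nod1 (chr6:54923952-54923981, minus strand): cagttcatttgttAATAAAatatttaaaac
The signal ended 14 bases before the transcript end in Ccr2 and Nod1 and 17 bases before it in S1pr1. The AU-rich core was present on the gene's strand of 151 peaks in 150 genes, at 181 sites. Sites of 4 genes of T cell activation and tissue residence are shown, with the core in capitals.
Tiparp (chr3:65554880-65554909, plus strand): ttccacacaaTTATTTATTttgccctagtt
Cd28 (chr1:60773205-60773234, plus strand): ggtatttttcTTATTTATTggtttattgcc
Rel (chr11:23737834-23737863, minus strand): cctcccagactTTATTTATTttttttagct
Hif1a (chr12:73946005-73946034, plus strand): atgcacctttTTATTTATTtatttttggtg
In the window of 300 bp around each midpoint, AATAAA on the gene's strand was found in 14.9% of 3' UTR peaks, against 8.14% of coding exon peaks and 11.5% of intron peaks. On the opposite strand it was found in 15.4%, 11.7% and 17.7%. With either strand counted, AATAAA was in 27.4% of 3' UTR windows and in 25.5% of the windows of all peaks. The AU-rich core was in 0.928% of 3' UTR windows on the gene's strand and in 1.305% of intron windows, and GGACT, a form of the motif in which N6-methyladenosine is placed, in 27.7% of 3' UTR, 27.1% of coding exon and 23.8% of intron windows. The peaks with the AU-rich core in this window (61) had a median log2 ratio of LI over spleen of 0.10 (95% interval -0.15 to 0.21), and the other 6509 one of 0.03.

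The deposited values were mean coverage per peak in RPKM, and they carried the depth as 1 step per read and bin. These steps gave 29627000 mapped reads in spleen and 38097000 in LI. Levels below are the deposited RPKM, and ratios are log2((LI + 0.5)/(spleen + 0.5)) after both libraries were scaled to the same total over all peaks. Beside a ratio stands an approximate 95% interval from the reads under the peak, which covers counting error only. A peak entered the merged set when it was called in either library, so peaks low in both are missing and a narrow peak low in one library had to be higher in the other. In bulk chromatin, fewer cells with the mark and less mark per cell cannot be told apart. Among marker genes of other cells, 1 of 12 B cell genes (Fcer2a), 1 of 12 myeloid genes (Csf1r, 14.7 RPKM in spleen and 16.3 in LI) and 0 of 15 epithelial genes had a 3' UTR peak. The share over all coding genes with a 3' UTR was 19.1%, so such small counts say little about other cells in the sort. Of the T and Treg cell markers, Cd4, Foxp3, Il2ra, Ikzf2 and Ctla4 had one, and Cd3e, Cd3d and Cd3g had none. Ms4a1, Lyz2, Epcam and Krt8 had none.

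Genes with a 3' UTR peak were those with long 3' UTRs. Of the 4151 genes, 245 had a longest annotated 3' UTR under 500 bases, and the UTR under a peak had a median length of 2443 bases, while the longest UTR of each of the 21707 coding genes had a median of 919. A peak was found in 3.32% of genes with a UTR under 500 bases, in 13.3% from 500 to under 1000, in 25.6% from 1000 to under 2000, in 37.97% from 2000 to under 4000, in 43.0% from 4000 to under 8000 and in 39.2% from 8000. A longer UTR also offers more bases in which a midpoint can fall. One peak was found in 2668 genes, 2 in 909, 3 in 350 and at least 4 in 224. Hnrnpr, which encodes an RNA-binding ribonucleoprotein, had the most with 11 peaks along a UTR of 19422 bases, from 2.48 to 12.9 RPKM in spleen and from 5.64 to 12.5 in LI. Aak1, encoding a kinase of clathrin adaptors, followed with 9 peaks (1.55 to 21.5 RPKM in spleen, 5.02 to 22.2 in LI). Nmd3, which exports the large ribosomal subunit, also had 9 (3.29 to 10.7 and 2.22 to 10.4), as had Ssr1, a subunit of the translocon-associated complex (3.25 to 18.01 and 6.74 to 12.4), and Fam210a (3.56 to 17.3 and 6.49 to 13.2). Within each of these UTRs the measured values thus differed between peaks of a single library, and the part of counting error in this was not tested.

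Most of these peaks lay inside the UTR and did not reach its borders. The whole peak was UTR sequence in 4154 cases (63.2%). The stop codon was under 1929 peaks (29.4%), the transcript end under 1119 (17.03%), both under 657 and neither under 4179 (63.6%). The midpoint also lay in coding sequence of another transcript in 225 peaks and in an intron of another coding transcript in 1190 (18.1%). A gene on the opposite strand covered the midpoint of 641 peaks (9.76%). UTRs of several genes shared 101 peaks, up to 21 genes for a peak in the protocadherin gamma cluster, whose genes end in common exons. There were 111 peaks on chromosome X and 0 on Y.

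The signal was highest next to the coding region and lower toward the transcript end in both libraries. In the first quintile of the UTR the median was 11.5 RPKM in spleen and 12.1 in LI (n = 1682 peaks), in the middle quintile 10.2 and 10.7 (n = 1302) and in the last quintile 9.88 and 10.6 (n = 869). Median width went the same way, from 646.5 bp to 404 bp, and peaks over the stop codon were wider than the rest. Among peaks in UTRs over 2 kb, the medians of the first and last quintile were 11.4 and 9.28 RPKM in spleen and 11.6 and 10.4 in LI. Peaks that held both stop codon and transcript end were the widest and strongest, with a median of 2513 bp, 15.6 RPKM in spleen and 16.8 in LI. Those that held neither had 372 bp, 9.53 RPKM and 10.04 RPKM. The spread over peaks was wide against these differences: the interquartile range of all 3' UTR peaks ran from 8.06 to 13.5 RPKM in spleen and from 8.38 to 14.4 in LI.

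**Figure D1:**
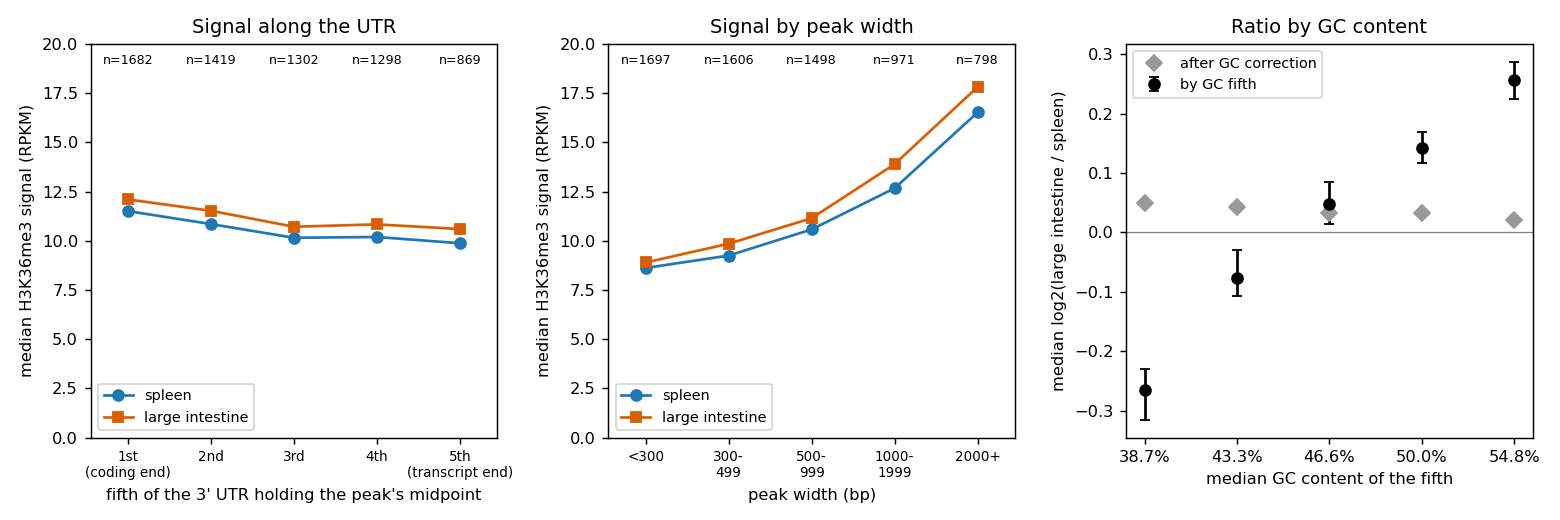
Median H3K36me3 signal in RPKM of the 3' UTR peaks by quintile of the UTR (left) and by peak width (middle) in spleen (blue circles) and LI (orange squares), with the number of peaks on top, and the median log2 ratio of LI over spleen by quintile of GC content (right), with 95% intervals over peaks as bars and GC-corrected medians as grey diamonds. Signal falls from 11.5 to 9.88 RPKM in spleen along the UTR, grows with width, and the ratio climbs from -0.26 in the GC-poorest quintile to 0.26 in the GC-richest.

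In width, GC content and level, 3' UTR peaks stood between the peaks of coding exons and those of introns. Their median width was 496 bp (interquartile range 295 to 1075), against 612.5 bp in coding exons, 443 bp in introns and 376 bp within 5 kb past a coding transcript end. Median GC content was 46.6%, against 47.6%, 46.0% and 47.7%. The median level was 10.6 RPKM in spleen and 11.2 in LI. Coding exon peaks had 11.6 and 12.1 RPKM, intron peaks 10.2 and 10.2, and peaks past the gene end 9.40 and 10.3. With 5.43% of all peaks, 3' UTRs held 5.57% of the summed spleen signal and 5.75% of the summed LI signal. Wider peaks were stronger: the median rose from 8.62 RPKM in spleen and 8.90 in LI under 300 bp to 16.5 and 17.8 at 2000 bp or more. Since peak calling joins neighbouring enriched bases, width and height are not independent.

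The strongest 3' UTR peaks differed little between tissues. A peak of 7710 bp over the 3' end of Hjurp, which loads the centromeric histone CENP-A, had 81.4 RPKM in spleen and 85.0 in LI, the highest of all. Irf1, an interferon-induced transcription factor, followed with 45.6 and 49.6 RPKM, and Dusp5, a phosphatase of the kinase ERK, with 40.03 and 46.8. Next in order of mean signal came Arhgdia (38.2 and 39.5), Cers1 (31.1 and 46.0), Zbtb7b (35.8 and 37.0), Chpf (32.9 and 39.0), Tubb5 (35.7 and 35.9), H2-Q6 (35.7 and 34.6) and Chmp1a (31.9 and 37.5). Their log2 ratios lay between -0.09 and 0.20 with the exception of Cers1, which had 0.51 (0.21 to 0.82). After GC correction the 10 ratios lay between -0.24 and 0.16, with Cers1 at 0.16, below its interval, and Chpf turned from 0.20 to -0.16. H2-Q6 is a class I gene with near-identical neighbours, and Cers1 shares its peak with Gdf1 and Upf1, so neither level belongs to that gene with certainty. The same holds for Irf1 (with Gm17334), Zbtb7b (Dcst2), Chpf (Asic4) and Chmp1a (Gm20388 and Rps12-ps9). The longest members were those of Rexo4 (9872 bp, 19.7 and 22.98 RPKM), Lsm14b (9740 bp, 22.97 and 26.7) and Hnrnpab (9599 bp, 24.7 and 25.8). They also overlapped the coding genes Stkld1, Psma7 and Phykpl, in that order. Just past the length limit stood Tbc1d20 (10558 bp, 21.3 and 22.04 RPKM), Tbx6 (10868 bp, 24.8 and 29.97) and Dnah17 (11267 bp, 24.5 and 24.2). At the other limit, the members nearest to a transcript start were 1003 and 1004 bases away (8.46 and 12.3 RPKM in spleen), and the nearest left out were 1000 and 997 bases away (16.6 and 8.95).

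Taken over all 3' UTR peaks, spleen and LI were nearly level. The median log2 ratio of LI over spleen was 0.03 (95% interval over peaks 0.02 to 0.05), against -0.04 in introns, 0.02 in coding exons and 0.12 past gene ends. When the libraries were scaled to length-weighted totals the median was -0.0036, so it has no firm direction. More than 2-fold higher in LI were 568 peaks (8.65%), beside 9.05% of all 120910 peaks, and more than 2-fold higher in spleen were 493 (7.504%), beside 9.60%. The counting interval lay wholly above 0 in 454 peaks (6.91%, against 6.25% of all peaks) and wholly below 0 in 298 (4.54%, against 5.82%). These shares are near those of the whole set.

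Narrow peaks carried most of the 2-fold differences and the fewest reads. Under 300 bp, 17.1% of the 1697 peaks were over 2-fold higher in LI and 17.9% in spleen. At 2000 bp or more these shares were 0.627% and 0.501% of 798. A 3' UTR peak had a median counting error of 0.50 on the log2 scale, while the ratios had a standard deviation of 0.74 over peaks. Across the 1769 peaks of 1 kb or more, log2 signal of the 2 libraries had Pearson's r of 0.68, and across the 4801 narrower ones 0.027. Both are across peaks, which share library, depth and base composition. The ratio also moved with GC content (r = 0.26 over 6570 peaks): its median was -0.26 in the GC-poorest quintile, -0.08, 0.05 and 0.14 in the next 3, and 0.26 in the GC-richest. After the median of all peaks with like GC content was subtracted, the 5 medians lay between 0.02 and 0.05. The part of GC content in single differences below was not tested, and a GC-corrected ratio is given beside several of them.

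**Figure D2:**
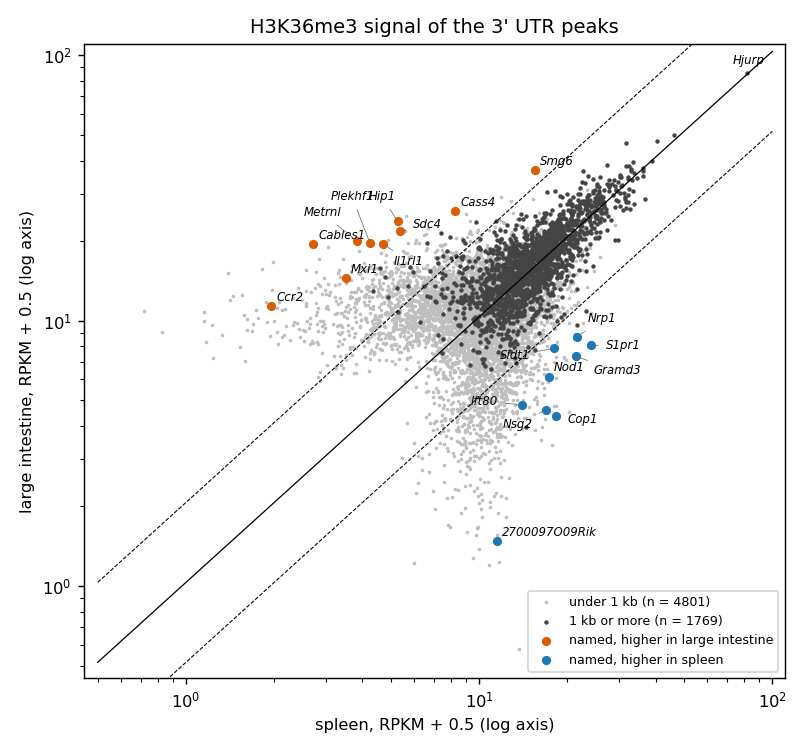
Deposited signal of each 3' UTR peak in spleen (horizontal axis) and LI (vertical axis), as RPKM + 0.5 on log axes, with peaks under 1 kb in grey and of 1 kb or more in black. The solid line marks equal scaled signal and the dashed lines 2-fold. The genes named for their difference between tissues are coloured (orange, higher in LI, and blue, higher in spleen), Hjurp stands at the top right with 81.4 and 85.0 RPKM, and few wide peaks leave the dashed band.

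The 10 genes with the largest interval bound toward LI had mixed functions. All but Plekhf1 and Smg6 are in the study's colonic Treg signature, described below, and Ccr2 and Il1rl1 are also on the list of tissue Treg genes. The 10 genes were ranked by the bound nearer to 0. At the 3' end of Cables1, an adaptor of cyclin-dependent kinases, signal was 2.22 RPKM in spleen and 18.8 in LI, a log2 ratio of 2.79 (1.84 to 3.74). Plekhf1, an endosomal protein, had 3.74 and 19.1 RPKM (2.16, 1.66 to 2.66). Metrnl, a secreted meteorin-like protein, had 3.35 and 19.4 RPKM (2.33, 1.65 to 2.999). Cass4, a scaffold of focal adhesions, had 7.76 and 25.4 RPKM over 6330 bp (1.60, 1.34 to 1.86). All 4 spleen values were under the spleen median of 3' UTR peaks, 10.6 RPKM. The UTR at the midpoint has 253 bases in Metrnl, whose peak spans 1977 bp, and 1500 bases in Cass4. Most of both peaks thus lay outside that UTR, and the antisense gene Gm14455 also overlapped the Cass4 peak. Hip1, a clathrin-binding protein, had 4.77 and 23.1 RPKM, and Ccr2, a chemokine receptor, 1.46 and 10.8 in the peak whose poly(A) signal is printed above. Mxi1, an antagonist of Myc, had 3.001 and 13.9 RPKM, Il1rl1, the receptor ST2, 4.21 and 18.96, and Sdc4, a heparan sulphate proteoglycan, 4.89 and 21.2. The remaining one was Smg6, described at the end.

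The genes ranked in the same way toward spleen had mixed functions too. Of those named here, S1pr1, Nrp1, Nod1, Nsg2, Ift80 and Sidt1 are in the splenic signature, and Gramd3, Cop1 and 2700097O09Rik are not. S1pr1, the receptor that lets T cells leave lymphoid organs, had 23.6 and 7.58 RPKM over its whole 3' UTR (-1.62, -1.98 to -1.26). Nrp1, neuropilin-1, a marker of thymic Treg cells, had 21.04 and 8.17 RPKM (-1.36, -1.79 to -0.92). The midpoint of that peak lay in the UTR of 552 bases of a transcript of Nrp1. The peak itself spanned 2006 bp and ran past both ends of this UTR. Nod1, a sensor of bacterial cell wall, had 16.8 and 5.63 RPKM (-1.54, -2.12 to -0.95). Nsg2 had 16.4 and 4.12 RPKM, Gramd3 20.8 and 6.83, and Cop1, a ubiquitin ligase, 17.8 and 3.86. Ift80, of intraflagellar transport, had 13.5 and 4.32 RPKM, Sidt1 17.5 and 7.37, and 2700097O09Rik 10.98 and 0.972. The last peak had the widest interval of its log2 ratio (-5.21 to -0.79), since about 1 read lay under that peak in LI.

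Genes of the colonic and splenic Treg signatures, which the study took from expression data of other samples, differed in opposite directions in their 3' UTRs. Of the colonic genes, 168 had 259 peaks with a median log2 ratio of 0.62 (0.46 to 0.77), and 94 of these peaks (36.3%) were over 2-fold higher in LI and 9 (3.47%) in spleen. Of the splenic genes, 187 had 319 peaks with a median of -0.31 (-0.41 to -0.22), and 11 (3.45%) were over 2-fold higher in LI and 64 (20.1%) in spleen. The medians after GC correction were 0.62 and -0.22. Of all 3' UTR peaks, 8.65% were over 2-fold higher in LI and 7.504% in spleen. The 2 signatures were not alike in level. The colonic peaks had a median of 7.48 RPKM in spleen and 12.1 in LI, and the splenic ones 10.9 and 9.20. Not every gene followed its list. The strongest colonic members were nearly level: Dusp5 (0.18), the amino acid transporter Slc38a2 with 31.8 and 29.3 RPKM (-0.16), Vgll4 with 25.2 and 27.5 (0.08) and Ctla4 (-0.19). The strongest splenic members were Zbtb7b, a factor of CD4 lineage choice (0.00), Limd2 with 36.4 and 28.2 RPKM (-0.41), Fam78a with 31.7 and 27.3 (-0.26) and Kif21b with 31.2 and 27.5 (-0.22). Against its list stood Cd83, a colonic gene with 22.4 RPKM in spleen and 16.2 in LI (-0.50, -0.79 to -0.20).

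**Figure D3:**
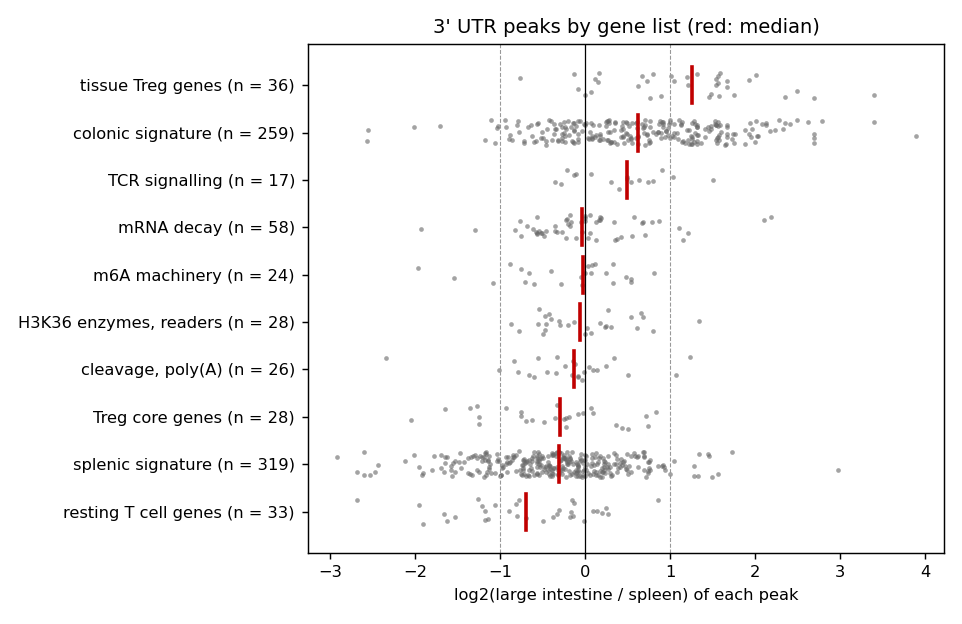
Log2 ratio of LI over spleen of each 3' UTR peak (grey points) in 10 gene lists, with the number of peaks in brackets and the median as a red bar; dashed lines mark 2-fold. Medians run from 1.26 in the tissue Treg genes to -0.70 in the resting T cell genes, and the lists of RNA and chromatin machinery centre near 0.

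Genes of tissue-resident Treg cells were higher in LI in nearly all of their 3' UTR peaks. This list, like that of resting T cell genes, was drawn up with results of these libraries known and is a description only. Of its 17 genes with a peak, 13 are also in the colonic signature. Of the 16 resting T cell genes, 6 are in the splenic signature and 3 in the colonic one, so the lists are not separate evidence. The tissue list had 36 peaks in 17 of 40 genes, with a median log2 ratio of 1.26 (0.76 to 1.57), or 1.47 after GC correction. Of these peaks, 33 were higher in LI, and 17 had an interval above 0. Over 2-fold higher in LI were 22 (61.1%), against 8.65% of all 3' UTR peaks. Among the transcription factors, Maf had 6.88 RPKM in spleen and 20.8 in LI in its first peak and 5.21 and 13.002 in its second. Rora, a nuclear receptor of tissue Treg cells, had 5 peaks along 9288 bases, and the first of them had 10.01 and 9.69 RPKM. The other 4 had 4.16 and 12.7, 6.31 and 11.7, 3.25 and 10.7, and 1.82 and 11.6 RPKM, each with an interval above 0. In spleen about 7, 19, 4 and 3 reads lay under these 4 peaks, so no course along the UTR can be read from them. Epas1, the hypoxia factor HIF-2 alpha, had 3.35 and 14.6 RPKM in its first peak and 0.896 and 14.6 in its second. The related Hif1a had 10.9 and 12.6 RPKM over the AU-rich site shown above (0.15, -0.24 to 0.54), and after GC correction its ratio was 0.68, above that interval.

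The aryl hydrocarbon receptor gene Ahr had 2 peaks at 2.30 and 4.33 RPKM in spleen and 9.22 and 11.9 in LI. Tiparp, a target of that receptor which encodes an ADP-ribosyltransferase, had 5.35 and 17.03 RPKM in the peak with the AU-rich site (1.54, 0.54 to 2.54) and 5.94 and 10.1 in the other. Prdm1, encoding Blimp-1, had 3.63 and 12.98 RPKM and 6.93 and 12.2. Id2 had 4.06 and 13.3 RPKM in a peak of 241 bp (1.56, -0.17 to 3.28). Irf4 was nearly level with 13.9 and 16.01 RPKM over 4892 bp (0.16, -0.10 to 0.42). Gata3, the factor of ST2+ Treg cells, had a single peak of 259 bp with 12.1 RPKM in spleen and 7.09 in LI (-0.77, -2.14 to 0.60, and -0.24 after GC correction), the only gene of the list whose peaks were on balance lower in LI. About 9 and 7 reads lay under it, so its direction was not detectable at this depth.

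Among receptors, Il1rl1 had 4 peaks. The pair in the UTR of a shorter transcript had 5.44 and 2.68 RPKM in spleen and 8.87 and 9.19 in LI, and it also lay in an intron of the longer one. The pair in the UTR of 3249 bases at the gene's end had 4.21 and 5.67 RPKM in spleen and 18.96 and 14.2 in LI. All 4 were higher in LI, and together they gave a log2 ratio of 1.45 (0.87 to 2.02). The other 2 peaks of Ccr2 had 1.07 and 9.96 RPKM and 2.73 and 10.04. Havcr2, the inhibitory receptor TIM-3, had 4.50 and 10.1 RPKM and 2.43 and 8.51. Il18r1 had 5.26 and 11.4 RPKM and 3.86 and 7.12, with intervals that reached below 0. The gut-homing receptors differed less: Ccr9 had ratios of 0.89, -0.13 and 0.07, and the integrin subunit Itga4 of 0.00 and 0.11.

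**Figure D4:**
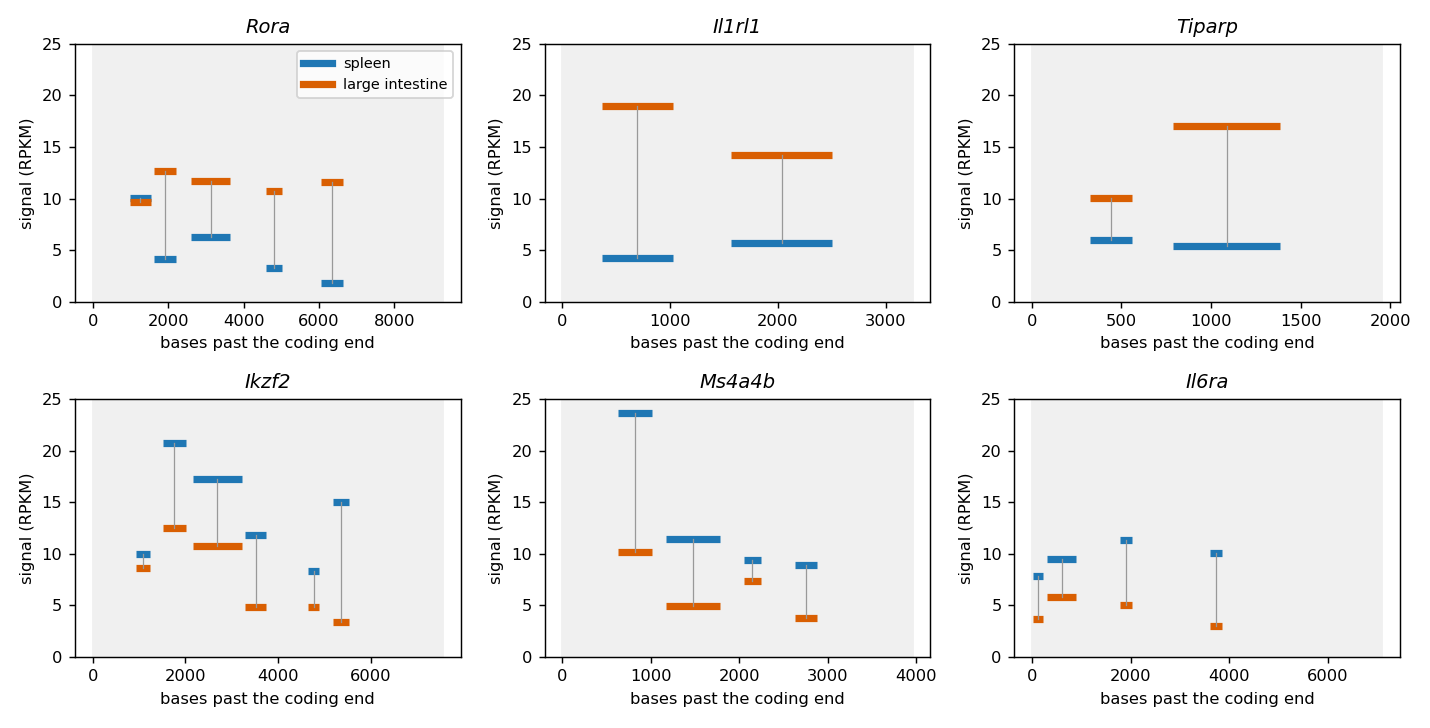
H3K36me3 signal in RPKM (vertical axis) of the peaks of 6 genes by position in bases past the coding end (horizontal axis), in spleen (blue) and LI (orange), with the UTR shaded; a bar spans the width of its peak, and of Il1rl1 the pair in the longest UTR is drawn. In Rora, Il1rl1 and Tiparp all peaks but the first of Rora are higher in LI, with up to 18.96 RPKM, and in Ikzf2, Ms4a4b and Il6ra every peak is higher in spleen.

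Core genes of the Treg lineage were split, with more of their peaks lower in LI. The list had 28 peaks in 15 genes with a median log2 ratio of -0.29 over peaks (-0.76 to -0.02) and -0.16 over genes. Of these genes, 10 were lower in LI and 5 higher. Over 2-fold higher in LI were 0 peaks and in spleen 6 (21.4%), against 8.65% and 7.504% of all 3' UTR peaks. Foxp3 itself had a peak of 294 bp with 12.2 RPKM in spleen and 13.2 in LI, and one of 1076 bp with 8.17 and 11.6, together 0.34 (-0.24 to 0.93). Both peaks also overlapped the coding gene Ccdc22 and Gm36995, so neither level belongs to Foxp3 with certainty. The midpoint of the wider one also lay in an intron of a coding transcript. The widely used Foxp3 reporter allele with Cre and YFP carries its cassette in the Foxp3 UTR, and the cassette is not part of the reference genome. Ikzf2, encoding Helios, had 6 peaks between 8.28 and 20.8 RPKM in spleen and between 3.36 and 12.5 in LI, each lower in LI. Together they gave -0.85 (-1.23 to -0.46). Gpr83 had 3 peaks with 13.6, 10.4 and 12.1 RPKM in spleen and 7.08, 3.06 and 4.89 in LI (-1.26, -2.14 to -0.38, for the gene). In both genes all peaks had the same direction, although peaks of one gene share their source.

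The IL-2 receptor and the costimulatory genes were near level. Il2ra had 23.6 and 20.8 RPKM over its stop codon, 12.1 and 9.82 further on and 7.49 and 14.2 near its end, together -0.16 (-0.44 to 0.12). Il2rb had 22.8 and 30.5 RPKM (0.37, -0.09 to 0.82), and Stat5b, which carries the IL-2 signal, 24.2 and 26.6 RPKM over 8172 bp (0.09, -0.06 to 0.24). Ctla4 had 26.9 and 24.3 RPKM (-0.19, -0.47 to 0.09), and Cd28 9.76 and 8.56 RPKM in the peak with the AU-rich site (-0.22, -0.83 to 0.39). Both ratios turned with the GC correction, to 0.13 in Ctla4, above its interval, and to 0.09 in Cd28. Tgfbr2 was lower in LI in its wide peak, with 24.8 and 19.9 RPKM (-0.36, -0.62 to -0.10), and had 5.34 and 9.57 in a peak of 218 bp. Tgfbr1 had peaks with ratios of 0.72 and -0.49. Entpd1 (16.2 and 16.5 RPKM) and Ikzf4 (18.2 and 17.7) had intervals that span 0, and Itgb8 and Tnfrsf9 had only peaks of 200 to 238 bp.

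Genes of resting and recirculating T cells were lower in LI. Their 33 peaks in 16 genes had a median log2 ratio of -0.70 (-1.15 to -0.16), or -0.49 after GC correction. Of these peaks, 27 were higher in spleen. Over 2-fold higher in spleen were 12 (36.4%), against 7.504% of all 3' UTR peaks. Over 2-fold higher in LI were 0, against 8.65%. Ms4a4b, a tetraspanning T cell surface protein, had 4 peaks with 23.6, 11.4, 9.35 and 8.91 RPKM in spleen and 10.2, 4.90, 7.32 and 3.80 in LI (-1.10, -1.69 to -0.50, for the gene). Il6ra had 4 peaks of 7.88 to 11.3 RPKM in spleen and 2.96 to 5.84 in LI (-0.99, -1.73 to -0.25, for the gene), whereas Il6st, the signalling partner of that receptor, had 23.3 and 21.2 RPKM in its main peak of 5150 bp. Bach2, a repressor of effector programmes, had 13.6 and 4.52 RPKM in one peak and 7.05 and 8.46 in the other. Klf3 had 10.7 and 5.68 RPKM, and Dgka, a brake on T cell receptor signals, 25.4 and 21.05 over 5533 bp (-0.31, -0.50 to -0.12). The UTR of Dgka has 292 bases, so most of its peak lay outside that UTR, and the peak also overlapped the coding gene Pmel. Foxo1, a factor of T cell quiescence, was level in its 3 peaks (0.14, -0.02 and 0.24), and Ets1 had 30.9 and 28.6 RPKM (-0.16, -0.38 to 0.06). The 4 peaks of Rel had ratios of -0.78 to 0.27, each with an interval that spans 0. Cd44, which rises upon activation, had 7.57 and 14.5 RPKM in one peak (0.85, 0.02 to 1.68) and 8.30 and 9.19 in the other.

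Lists of the machinery that acts on 3' ends showed no common direction. Genes of mRNA decay had 58 peaks in 26 of 40 genes with a median log2 ratio of -0.04 (-0.22 to 0.12). Over 2-fold higher in LI were 5 (8.62%) and in spleen 2 (3.45%), against 8.65% and 7.504% of all 3' UTR peaks. Apart from Smg6, Ago2, the slicing Argonaute, had 17.7 and 20.1 RPKM (0.13) and Cnot8, a deadenylase, 17.4 and 18.7 (0.06) in their strongest peaks. Cleavage and polyadenylation genes had 26 peaks in 11 genes (-0.13, -0.45 to 0.05), led by Cstf1 with 25.5 and 25.6 RPKM. Genes of N6-methyladenosine had 24 peaks in 11 genes (-0.02, -0.66 to 0.24), led by the demethylase Alkbh5 with 16.8 and 17.8 RPKM. Enzymes and readers of H3K36 methylation had 28 peaks in 14 genes (-0.06, -0.42 to 0.25). Among them Nsd2 had 19.03 and 13.2 RPKM in its strongest peak (-0.55, -0.96 to -0.15), and ratios of 0.30, -0.13, 0.03 and -0.20 in its others. Genes of T cell receptor signalling, a list of another kind, had 17 peaks in 8 genes with a median of 0.49 (-0.11 to 0.74). Of these peaks, 12 were higher in LI, 4 with an interval above 0, and 5 higher in spleen, 0 with an interval below 0. The strongest had ratios on both sides of 0: Nfatc1 had 26.7 and 21.5 RPKM (-0.35, -0.74 to 0.04) and Nfatc2 20.1 and 25.6 (0.30). Malt1 had 15.3 and 22.4 RPKM (0.50) and Grap2 15.3 and 14.4 (-0.13, -0.62 to 0.36). Housekeeping genes had 10 peaks in 4 genes with a median of -0.16 and none past 2-fold.

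The 3' UTR of a gene mostly shared the tissue ratio of its introns. In 2810 genes with at least 3 intron peaks, the ratio of the UTR and that of the introns had the same sign in 66.1%. Pearson's r across genes was 0.53, and 0.69 in the 1478 genes with at least 1 kb of UTR peaks; genes are not independent replicates, and both ratios come from the same libraries. Of 275 of these genes with a UTR past 2-fold, 215 had introns on the same side of 0 and 70 had introns past 2-fold too. Rora had 0.98 in its UTR and 1.12 in its introns, Epas1 2.33 and 2.07, Il6ra -0.99 and -1.34 and Ikzf2 -0.85 and -0.46. For Foxp3 the values were 0.34 and 0.15. UTR ratios were higher than intron ratios by a median of 0.04 (0.03 to 0.06).

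In level, the 3' UTR was close to the introns and below the coding exons of the same gene. Against introns the median log2 difference was -0.05 (-0.07 to -0.03) in spleen and -0.00054 (-0.02 to 0.02) in LI, and the UTR was the higher in 45.9% and 49.8% of genes. Against coding exons it was -0.23 (-0.26 to -0.20) in spleen and -0.19 (-0.23 to -0.15) in LI over 1937 genes, and the UTR was the higher in 34.0% and 36.9%. Among peaks that lay wholly within UTR sequence the difference from introns was -0.20 in spleen and -0.16 in LI, and among peaks of 1 kb or more -0.00056 and 0.04.

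**Figure D5:**
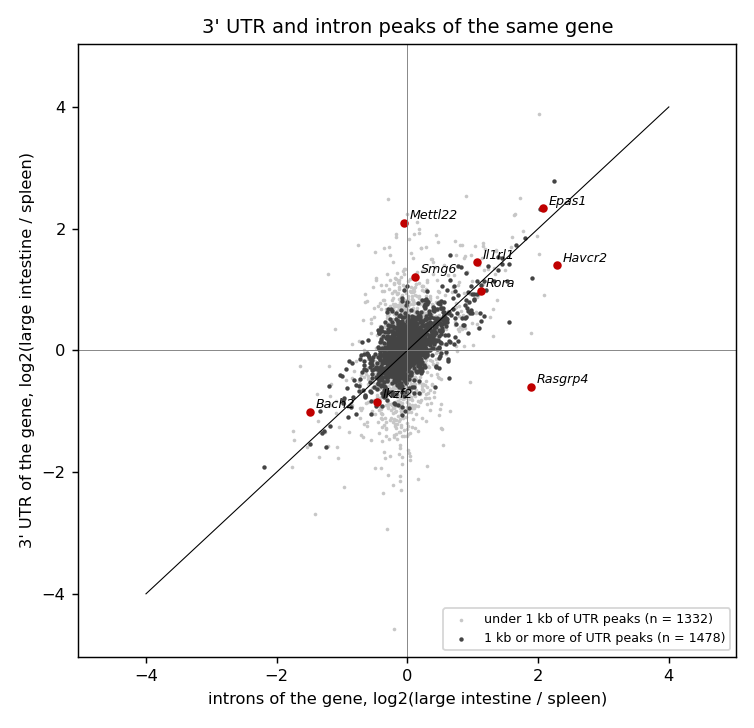
Log2 ratio of LI over spleen of the intron peaks (horizontal axis) and of the 3' UTR peaks (vertical axis) of the same gene, 1 point per gene, with genes of under 1 kb of UTR peaks in grey; the line marks equal ratios. Most named genes (red) lie near the line, such as Rora (1.12 and 0.98) and Epas1 (2.07 and 2.33), while Smg6, Mettl22 and Rasgrp4 lie far from it.

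The difference between UTR and introns was also taken gene by gene. Its counting interval lay above 0 in 130 of the 2810 genes (4.63%) and below 0 in 74 (2.63%). An interval of 95% leaves some genes on either side of 0 by construction, and these counts were not tested. The genes named next were chosen after their values were seen. Smg6, which encodes an endonuclease of nonsense-mediated decay, had the widest UTR peak among them. Its peak of 9596 bp (chr11:75158519-75168114) had 14.9 RPKM in spleen and 36.3 in LI (1.21, 1.05 to 1.37, and 0.97 after GC correction), while its 56 intron peaks had 10.4 and 11.7 RPKM (0.12). The UTR peak ran past the end of Smg6, at position 75164448, into Hic1, a transcriptional repressor gene on the opposite strand (chr11:75164565-75169519), and covered 71.6% of it. The 3550 bases of Hic1 made up 37.0% of the peak, 3' UTR sequence of any gene 2319 bases of it, and which of the genes carried the difference cannot be told apart in 1 mean value per peak. Mettl22, a lysine methyltransferase, had 5.12 and 24.3 RPKM in its UTR peak of 438 bp and 15.9 and 15.8 in its 4 intron peaks. Rasgrp4 went the other way, with 8.89 and 5.88 RPKM in its UTR and 2.97 and 12.7 in its 6 intron peaks, and its UTR peak also overlapped Fam98c.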

How the data were processed

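Reads (single-end, 75 nt) had been placed on mm10 by the authors, who called peaks per tissue with MACS2 against input, joined them with bedtools and averaged RPKM coverage tracks over every joined peak. The labels' tool list names FastQC, Bowtie2, MACS2 and bedtools, and versions are not given in the sources used here. The deposited values are this mean RPKM coverage, although the table is called raw counts, so no count test was run.

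Peak midpoints were placed in GENCODE M21 (assembly GRCm38, where no peak ran past the end of its chromosome) with Python 3.11.15, numpy 2.4.6, pandas 2.3.3 and scipy 1.17.1. Its UTR features include the stop codon. A value times its width was whole in units of 1 read and bin, within 0.05, in 96.4% of 590 low peaks whose ends both fell on a 20-bp grid. Counting intervals took 1 read as covering 200 bp and reads as independent molecules. A pseudocount of 0.5 RPKM was added, which understates low peaks. Intervals of medians are binomial, over peaks or genes. The ratio and its interval were also run on simulated data, scored in well-covered peaks only. The simulation drew independent reads of 200 bp, as the interval assumes, so it cannot check either assumption. For the GC correction, peaks were cut into 20 bins.

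Named were the peaks of core, tissue and resting Treg genes, the 10 genes per direction with the interval bound farthest from 0, the 10 strongest, the 5 genes with the most peaks, the longest, and up to 4 of the strongest in other lists. Of 505 colonic and 494 splenic symbols, 500 and 486 matched. Members and lists were chosen with earlier results of these data known. Some genes that this rule names are not reported here.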

Additional observations from a re-analysis of the deposited data

How the results depend on the processing

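No paired analysis was possible because each tissue has 1 library, and a single pair, described as drawn from pooled mice, has no spread between pairs. The median log2 ratio of all 3' UTR peaks (0.03) turned to -0.0036 with length-weighted totals, was 0.076 on values as deposited, without scaling, and 0.058 with a minimum of 20 RPKM over both libraries. The counts past 2-fold (568 toward LI and 493 toward spleen) fell to 168 and 106 with a pseudocount of 5, to 132 and 72 with that minimum and to 28 and 9 at 1 kb or more, where fewer peaks enter. The share of these calls toward LI was 53.5%, against 50.05% with length-weighted totals and 58.4% without scaling. The colonic median (0.62) was 0.45 with a pseudocount of 5 and 0.45 with the minimum, and the splenic one (-0.31) was -0.22 with the GC correction. The level against introns of the same gene (-0.05 in spleen, -0.00054 in LI) was -0.00056 and 0.043 at 1 kb or more, -0.076 and -0.024 with no overlap with coding sequence or introns of other transcripts, and -0.20 and -0.16 for peaks wholly in UTR sequence. The cause was not tested. The other 49 recomputed summary values stayed within the interval of the median or within 1.5 times the count, and among the peaks of the Treg and resting T cell lists and of the 10 genes per direction, none with an interval apart from 0 changed direction in 336 recomputed values, 10 of which left the peak's interval. Without a second library per tissue no spread between samples is known.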
